A study of Rattus norvegicus with 8 samples.

Results

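The genes described here belong to neuronal excitability: Scn2a (Scn2a1 in the authors' tables), Scn3a, Cacna1c, Kcnj6, Kcnk1, Abcc8 and Slc24a2. They encode ion channels, a regulatory subunit of potassium channels (Abcc8) and an ion exchanger (Slc24a2). They were taken by name, with all listed probes, from the authors' deposited tables of genes changed after postnatal fluoxetine, which gave 7 genes with 8 probes of 422 genes and 450 probes named there. The medial prefrontal cortex was taken whole from rats aged 6 months and measured on a custom one-colour Agilent array with 15207 probes. Pups of the PNFLX group were given the antidepressant fluoxetine, which blocks serotonin reuptake, at 10 mg/kg from postnatal day 2 to 21, and the CONTROL group had received the vehicle, a 5% sucrose solution, on the same days. Each group had 4 arrays, numbered here as in the sample titles. The free-text descriptions of CONTROL 2, 3 and 4 speak of fluoxetine, while their titles and source names call them control, and the titles were followed. The sources used here do not give strain, sex, litter or whether the arrays came from separate animals, so errors measure the spread between these arrays, and their number limits the precision.

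A probe entered the authors' tables when the mean of its 4 PNFLX arrays lay at least 0.4 (log2) from the CONTROL median with an unadjusted p-value of at most 0.05. Over all 15207 probes, 450 (2.96%) met both criteria, 225 (1.48%) as higher and 225 (1.48%) as lower. The 8 probes met them by the way they were chosen, so the differences between the groups given below describe the arrays and are no test of these genes. Cacna1c lay just inside, with p = 0.0498 in the authors' deposited table, while the nearest probe outside by p, which has no name here, stood just above 0.05 with a mean of -0.41 (log2). By size the member nearest the limit was Kcnj6, with a mean of 0.53, and the nearest probe outside had a mean of -0.40.

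Voltage-gated sodium channels carry the upstroke of the action potential, and L-type calcium channels let calcium enter a depolarised neuron and signal to the nucleus. Potassium channels that are open near rest hold the membrane potential down and damp firing. Exchangers of the NCKX type use the sodium and potassium gradients to move calcium out of the cell after activity. In medial prefrontal cortex these proteins together set how readily pyramidal cells and interneurons fire. In whole tissue, fewer cells of a type and less RNA per cell cannot be told apart.

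The promoter sequences of 3 genes are shown because Scn2a and Scn3a are neighbours whose probes were both listed as higher, and because Slc24a2 had probes listed in both directions. Sequences run from 250 bases before to 50 bases after the gene start in RefSeq, on the GRCr8 assembly, and capitals mark CG dinucleotides. A promoter was found there for 5 of the 7 genes. Scn2a lies on the plus strand (chr3:70710706-70711005), Scn3a on the minus strand (chr3:70666149-70666448) and Slc24a2 on the minus strand (chr5:106787731-106788030).
Scn2a: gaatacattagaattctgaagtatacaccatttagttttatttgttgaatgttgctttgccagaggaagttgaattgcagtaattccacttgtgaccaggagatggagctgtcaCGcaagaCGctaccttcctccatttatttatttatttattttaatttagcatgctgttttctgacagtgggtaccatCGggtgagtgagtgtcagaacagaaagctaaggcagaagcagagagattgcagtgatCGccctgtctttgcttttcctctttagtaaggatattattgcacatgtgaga
Scn3a: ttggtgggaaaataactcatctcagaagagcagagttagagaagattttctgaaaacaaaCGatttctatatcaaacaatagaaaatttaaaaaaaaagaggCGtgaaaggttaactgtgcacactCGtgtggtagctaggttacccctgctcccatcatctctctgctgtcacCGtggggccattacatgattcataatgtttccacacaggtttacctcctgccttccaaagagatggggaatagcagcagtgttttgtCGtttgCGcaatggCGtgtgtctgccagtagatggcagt
Slc24a2: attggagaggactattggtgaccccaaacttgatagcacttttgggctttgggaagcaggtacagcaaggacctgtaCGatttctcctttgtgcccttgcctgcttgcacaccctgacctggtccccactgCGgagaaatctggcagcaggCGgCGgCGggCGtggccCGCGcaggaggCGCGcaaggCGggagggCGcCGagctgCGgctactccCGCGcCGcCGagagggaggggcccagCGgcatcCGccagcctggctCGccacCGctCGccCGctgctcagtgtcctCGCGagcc

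Scn2a and Scn3a are transcribed away from each other, with starts 44.8 kb apart, and Scn3a is the gene next to Scn2a in the annotation. Their promoters were poor in G and C, at 39.3% for Scn2a and 43.3% for Scn3a. Of 33469 promoters of this length 10.6% had a lower G and C content than Scn2a, and the median was 51.7%. The Slc24a2 promoter stood at 67.0% with 26 CG dinucleotides, against 4 for Scn2a and 7 for Scn3a, and 84.8% of promoters had fewer than Slc24a2. Kcnj6, on chromosome 11, had a G and C content of 66.7% with 18 CG dinucleotides, and Cacna1c, on chromosome 4, had 51.7% with 4. A GC box (GGGCGG, on either strand) occurred once in the Kcnj6 promoter and in 33.1% of all promoters. The CCAAT box (CCAAT, on either strand) occurred 2 times in Slc24a2 and 1 time in Cacna1c, and in 37.5% of all promoters. A TATA box (TATAAA, on either strand, 14.2% of promoters) and a cAMP response element (TGACGTCA, which reads the same on both strands, 1.83%) were in none of these 5 windows. No window held more than 1 kind of motif. A match is a run of letters and no measured binding site.

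Scn2a encodes the pore-forming subunit of a sodium channel at the axon initial segment of cortical excitatory neurons. Its log2 values relative to the CONTROL median were 3.41, 3.34, 3.44 and 3.31 in PNFLX 1 to 4, against -1.10, 0.38, -0.38 and 0.49 in CONTROL 1 to 4. The background-subtracted signals behind them were 3985, 6291, 5050 and 4477 in PNFLX 1 to 4, against 244.0, 541, 320.3 and 430 in CONTROL 1 to 4. Every PNFLX array was far above every CONTROL array, with a gap of 2.81 (log2) between the closest values of the groups. PNFLX arrays differed little from one another (SD 0.06, n = 4) and CONTROL arrays more (SD 0.74, n = 4), with CONTROL 1 the lowest. The closeness of the PNFLX arrays belongs to the scaled values, since their signals ran from 3985 to 6291. The change, PNFLX minus CONTROL, was 3.53 ± 0.39 (log2, SE, n = 4 per group), an 11.5-fold higher level on the geometric scale, and ranked 18 from the highest among all 15207 probes. With equal array medians the change was 3.61 ± 0.58.

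Scn3a encodes a sodium channel that in rodent brain is best known before and around birth. Its log2 values were 0.78, 0.12, 0.56 and 0.65 in PNFLX 1 to 4, against -0.46, 0.25, -0.12 and 0.12 in CONTROL 1 to 4. PNFLX 2 lay inside the CONTROL range, so 3 of 4 PNFLX arrays were above all CONTROL arrays. The unscaled signals did not overlap, at 894, 938, 950.5 and 984 in PNFLX 1 to 4, against 529, 685, 531 and 462 in CONTROL 1 to 4. The change was 0.58 ± 0.28 (log2, SE, n = 4 per group), and 0.79 without scaling between arrays. Leaving out the scaling moved every member probe upwards in PNFLX arrays, so the separation of unscaled signals is no firmer result. Both sodium channel probes were thus higher in PNFLX arrays, by very different amounts.

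Cacna1c, the pore-forming subunit of the main L-type calcium channel of brain, was the single calcium channel pore subunit in the tables. Its log2 values were 0.98, 0.16, 0.56 and 0.75 in PNFLX 1 to 4, against 0.01, 0.47, -0.01 and -0.19 in CONTROL 1 to 4. As for Scn3a, PNFLX 2 was the lowest PNFLX array and lay inside the CONTROL range, here below CONTROL 2. The unscaled signals again did not overlap, and were 208.0, 196, 193 and 215 in PNFLX 1 to 4, against 149, 162, 117 and 75.4 in CONTROL 1 to 4. The change was 0.55 ± 0.29 (log2, SE, n = 4 per group), or 1.46-fold, and 0.75 without scaling between arrays.

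**Figure D1:**
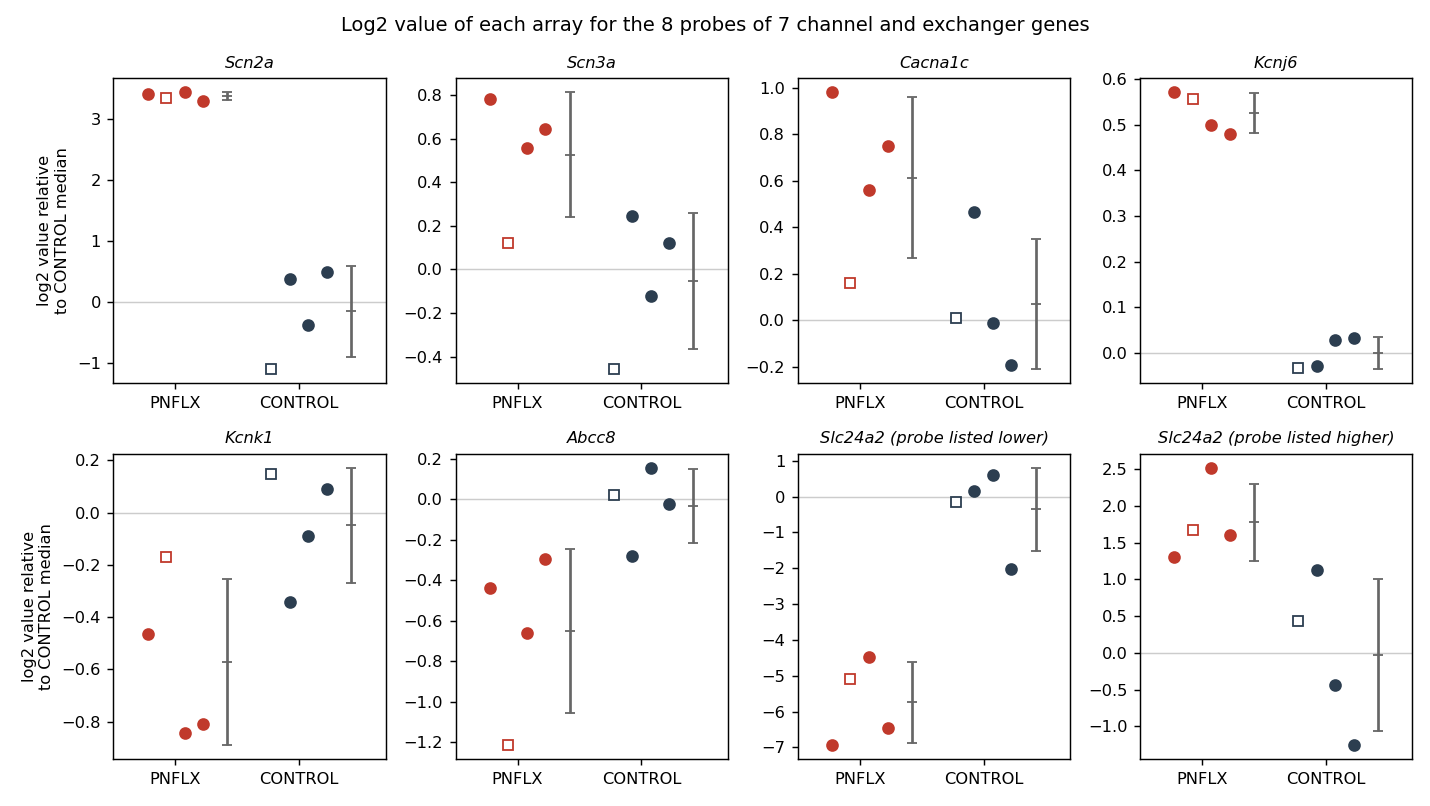
Log2 value relative to the CONTROL median (vertical axis, a separate scale per panel) in the 4 PNFLX arrays (red, left) and the 4 CONTROL arrays (dark, right) for the 8 probes. Open squares are PNFLX 2 and CONTROL 1, and grey bars are mean ± SD (n = 4). The groups lie apart in Scn2a, Kcnj6, Abcc8 and both Slc24a2 probes, and PNFLX 2 lies inside the CONTROL range in Scn3a, Cacna1c and Kcnk1.

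The potassium genes stood on both sides. Kcnj6 encodes GIRK2, an inward rectifier that opens when receptors for serotonin, GABA and other transmitters act through Gi/o proteins. Its log2 values were 0.57, 0.56, 0.50 and 0.48 in PNFLX 1 to 4, against -0.03, -0.03, 0.03 and 0.03 in CONTROL 1 to 4. The groups lay apart with a gap of 0.45 (log2), and the change was 0.53 ± 0.21 (log2, SE, n = 4 per group), or 1.44-fold. The SE is moderated towards the spread of other probes. The within-group SD of Kcnj6 was 0.040 (log2), the smallest of all 15207 probes as deposited. This closeness belongs to the scaled values: the signals were 190, 313, 225 and 216 in PNFLX 1 to 4, against 175, 139, 146 and 107 in CONTROL 1 to 4. The array constants that the authors' scaling removed ran in the same order in CONTROL arrays for CONTROL 1 (0.26, log2) as the highest and CONTROL 4 (-0.52) as the lowest, and in PNFLX arrays for PNFLX 2 (0.50) as the highest and PNFLX 1 (-0.23) as the lowest.

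Kcnk1 encodes TWIK, a potassium channel with a pair of pore domains in each subunit that carries a weak background current. Its log2 values were -0.46, -0.17, -0.84 and -0.81 in PNFLX 1 to 4, against 0.15, -0.34, -0.09 and 0.09 in CONTROL 1 to 4. PNFLX 2 lay inside the CONTROL range, and the other 3 PNFLX arrays lay below all CONTROL arrays. The unscaled signals were 202, 411, 193 and 193 in PNFLX 1 to 4, against 433, 245, 293 and 242 in CONTROL 1 to 4, with PNFLX 2 and CONTROL 1 the brightest of their groups. The change was -0.52 ± 0.27 (log2, SE, n = 4 per group), and without any scaling between arrays it was -0.32.

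Abcc8 encodes SUR1, the sulfonylurea receptor that regulates ATP-sensitive potassium channels and ties their opening to the energy state of the cell. Its log2 values were -0.44, -1.22, -0.66 and -0.29 in PNFLX 1 to 4, against 0.02, -0.28, 0.16 and -0.02 in CONTROL 1 to 4. The groups were apart by only 0.01 (log2), between PNFLX 4 and CONTROL 2. The unscaled signals overlapped, at 233, 225, 248 and 312 in PNFLX 1 to 4, against 448, 288, 391 and 254 in CONTROL 1 to 4. PNFLX 2, the lowest array, weighed most in the change of -0.62 ± 0.29 (log2, SE, n = 4 per group), which was -0.43 without it.

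Slc24a2 encodes NCKX2, the neuronal exchanger that brings in sodium and removes calcium together with potassium. Its 2 probes carry the same transcript accession and were listed in opposite directions. The probe listed lower had log2 values of -6.94, -5.10, -4.49 and -6.45 in PNFLX 1 to 4, against -0.17, 0.17, 0.60 and -2.02 in CONTROL 1 to 4. Its signals were 2.97, 17.6, 20.1 and 5.05 in PNFLX 1 to 4, against 455, 453, 613 and 73.2 in CONTROL 1 to 4. All PNFLX arrays were dim and below all CONTROL arrays, among which CONTROL 4 was by far the lowest. The signal of PNFLX 1 was the lowest among the listed probes on that array and the same in 57 of them, so it was read as a floor that bounds the level. With that floor taken as the value, the change was -5.39 ± 0.75 (log2, SE, n = 4 per group), and it was -4.99 without PNFLX 1. How far the other dim PNFLX spots lay above background is not known, so the size of this difference is less certain than its direction on these arrays.

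The other Slc24a2 probe had log2 values of 1.30, 1.67, 2.51 and 1.61 in PNFLX 1 to 4, against 0.44, 1.12, -0.44 and -1.25 in CONTROL 1 to 4. Its signals were 218, 469, 628 and 327 in PNFLX 1 to 4, against 168, 214, 72.7 and 30.3 in CONTROL 1 to 4. All PNFLX arrays were above all CONTROL arrays, by 0.18 (log2) at the closest. The change was 1.81 ± 0.55 (log2, SE, n = 4 per group), or 3.50-fold, and was 1.40 without CONTROL 4. Within the groups both probes shared part of their order, with CONTROL 4 lowest among CONTROL arrays, PNFLX 1 lowest and PNFLX 3 highest among PNFLX arrays. The sources used here do not say where on the transcript each probe sits, so no direction can be stated for Slc24a2 as a gene.

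**Figure D2:**
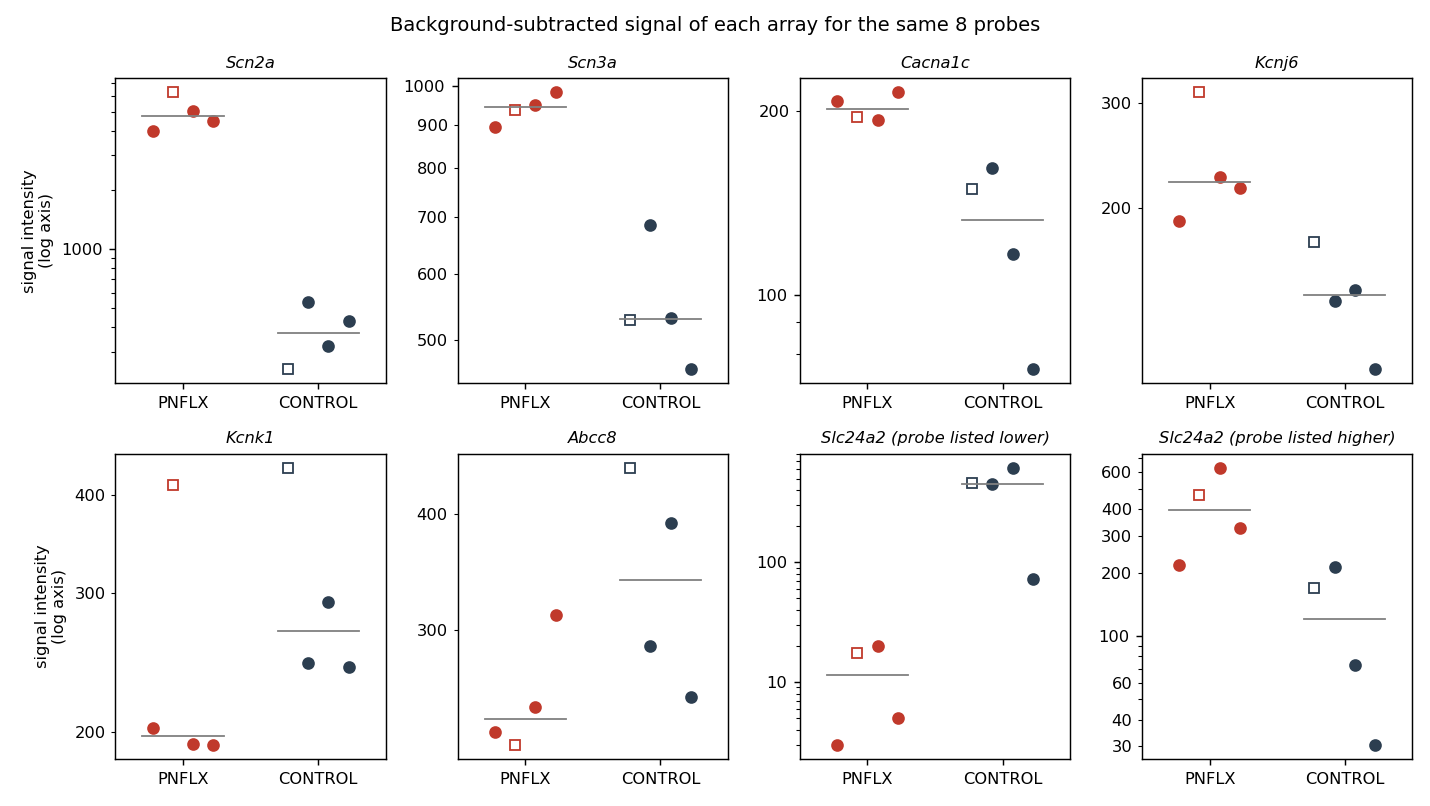
Background-subtracted signal intensity (logarithmic vertical axis, a separate scale per panel) in the 4 PNFLX arrays (red, left) and the 4 CONTROL arrays (dark, right) for the same 8 probes, before scaling between arrays. Grey lines are group medians and open squares are PNFLX 2 and CONTROL 1. The signals of Scn3a and Cacna1c do not overlap, those of Kcnk1 and Abcc8 do, and the Slc24a2 probe listed lower lies between 2.97 and 20.1 in PNFLX arrays, against 73.2 to 613 in CONTROL arrays. Without scaling every probe shifts upwards in PNFLX arrays, which favours separation of probes listed higher and overlap of those listed lower.

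Set side by side, 2 of 2 sodium channel probes and the 1 calcium channel probe were higher in PNFLX arrays. Of the 3 potassium probes, 1 was higher (Kcnj6) and 2 were lower (Kcnk1 and Abcc8, the latter a regulatory subunit and no pore). The median change was 0.54 (log2) over the 8 probes and -0.07 over all 15207 probes, 6518 of which were higher and 8689 lower. The median absolute change was 0.60 for the 8 probes, 1.26 for all 450 listed probes and 0.31 for all probes, so most of these probes sat among the smaller changes of the tables. The exceptions were Scn2a and both Slc24a2 probes. In 5 of the 8 probes the log2 values of the groups did not overlap, against 2.32% of all probes (1.18% with PNFLX higher and 1.14% with PNFLX lower) and 284 of the 450 listed probes, from which these 8 were taken. With unscaled signals 6 of 8 did not overlap, against 56.2% of the 450 listed probes, the ones with a deposited signal. Leaving out the scaling moved all 8 probes upwards in PNFLX arrays, for example from 0.58 to 0.79 (log2) for Scn3a and from -0.52 to -0.32 for Kcnk1. Such a shift favours separation of probes listed higher and overlap of those listed lower. In limma over all 15207 probes, 1 of the 8 probes, Scn2a, passed a Benjamini-Hochberg adjusted p of 0.05, against 0.118% of all probes (0.0592% higher and 0.0592% lower). Scn2a passed in 3 of 17 other fits and missed the threshold with each other scaling between arrays. The members were chosen on this contrast, and nothing is read from these counts.

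**Figure D3:**
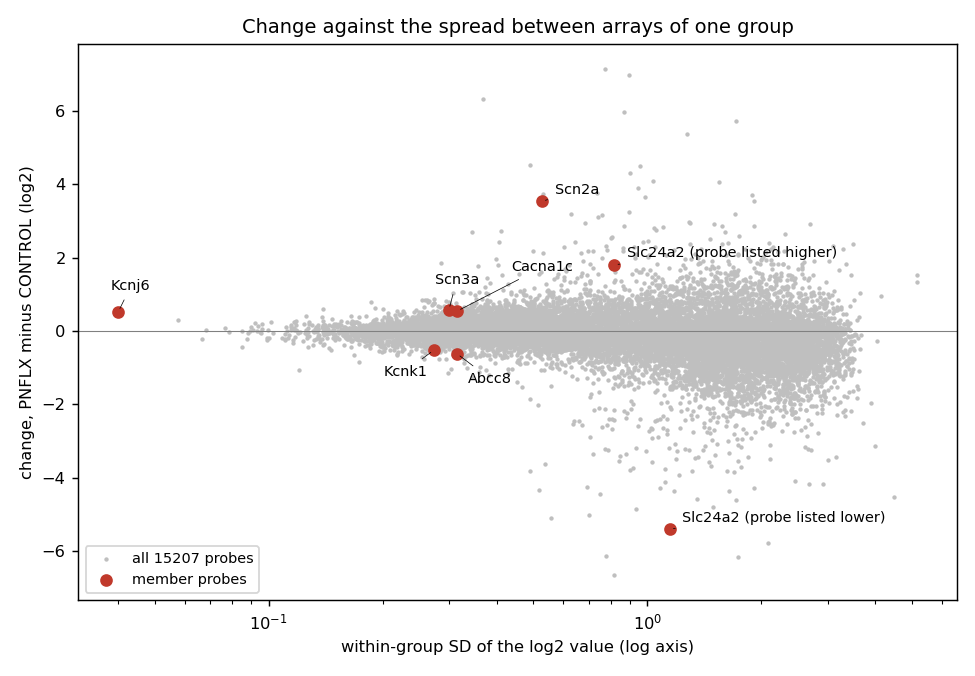
Change between the groups, PNFLX minus CONTROL (log2, vertical axis), against the SD between arrays of one group (logarithmic horizontal axis) for all 15207 probes (grey) and the 8 probes described (red). Kcnj6 lies at the left end with the smallest SD of all probes, 0.040. Scn2a and the Slc24a2 probe listed lower lie far from 0, and the other members lie between -0.62 and 1.81.

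PNFLX 2 and CONTROL 1 stood apart from the other 6 arrays over all probes, with medians of 0.59 and 0.79 (log2) against -0.18 to 0.09 for the rest. The members were therefore also read within these 2 sets of arrays. Both sets were part of the contrast that chose the members, so a sign shared by them is no support. The share of other listed probes with a shared sign is not given here. Without both arrays the changes were 3.22 for Scn2a, 0.58 for Scn3a, 0.68 for Cacna1c, 0.51 for Kcnj6, -0.59 for Kcnk1, -0.41 for Abcc8, -5.54 for the Slc24a2 probe listed lower and 2.00 for the other (log2). Between PNFLX 2 and CONTROL 1 alone, a single pair with no test, the difference had the same sign in all 8 probes. That difference was 4.44 (log2) for Scn2a, 0.58 for Scn3a, 0.15 for Cacna1c, 0.59 for Kcnj6, -0.32 for Kcnk1, -1.24 for Abcc8, -4.94 for the Slc24a2 probe listed lower and 1.23 for the other. In size, the differences of Scn2a, Kcnj6 and Abcc8 were larger in this pair than in the other 6 arrays. Those of Cacna1c, Kcnk1 and both Slc24a2 probes were smaller, and Scn3a was the same in both.

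**Figure D4:**
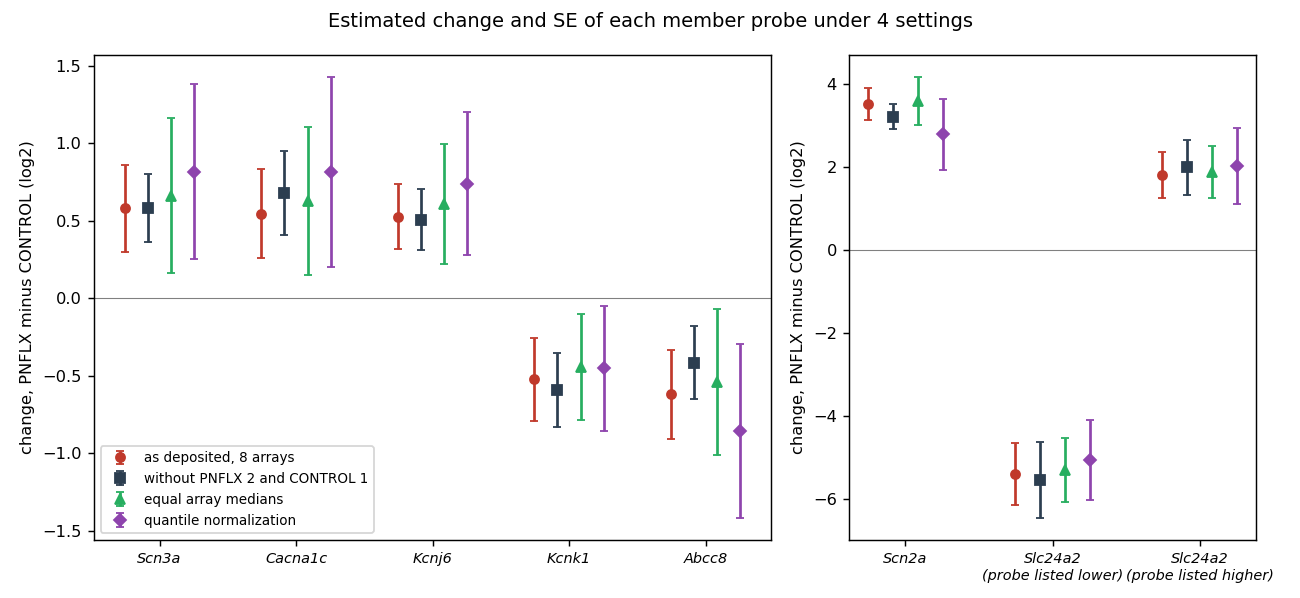
Change between the groups, PNFLX minus CONTROL (log2, vertical axis), with its SE for each of the 8 probes as deposited, without PNFLX 2 and CONTROL 1, with equal array medians and with quantile normalization. The small changes are on the left and the large ones on the right, with different scales. Each probe keeps its sign under the 4 settings, and Scn2a is smallest with quantile normalization, at 2.80.

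The tables were searched with 11 lists of ion channels, exchangers, pumps and their partners, 204 genes in all. Beyond the 7 genes described, another 7 genes of these lists had a row in the authors' tables, 5 as higher and 2 as lower, and none of them passed in limma. Genes of the lists outside the tables were not analysed here, since other probes have no name. In 3 lists (potassium channels activated by calcium or sodium, calcium release channels, anchors of the axon initial segment) no gene was named. The 7 other genes too were listed on these arrays, and neither their direction nor their size is independent evidence. Their median change was 2.11 (log2), against 0.02 over all 450 listed probes, 1.06 over those listed as higher and -0.07 over all probes.

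Of potassium channel genes, Dpp10, an auxiliary subunit of A-type channels, was at 2.94 ± 0.48 (log2, SE), with median signals of 373 in PNFLX arrays and 37.2 in CONTROL arrays. Kcnh2, the ERG channel, was at 2.84 ± 0.72, with median signals of 85.7 in PNFLX arrays and only 6.26 in CONTROL arrays. Its groups nearly met, at 2.06 (log2) in PNFLX 1 and 1.98 in CONTROL 1, and the signals of these arrays, 27.4 and 36.4, overlapped. Kcnj8, a pore subunit of ATP-sensitive channels that in brain is typical of pericytes and can pair with sulfonylurea receptors, was at -0.43 ± 0.22. Its signals overlapped, from 326 to 478 in PNFLX arrays and from 331 to 625 in CONTROL arrays. The pumps were both listed as higher. Atp2b1, a plasma membrane calcium pump, was at 3.53 ± 1.22, with log2 values from 0.98 to 5.66 in PNFLX arrays and from -1.27 to 2.55 in CONTROL arrays, so the groups overlapped. Atp1b2, a beta subunit of the sodium pump found in astrocytes, was at 2.11 ± 0.39. Trpc6, a cation channel gated through receptors, was at 1.30 ± 0.49, and Cacng7, a regulatory protein of AMPA receptors and calcium channels, at -0.45 ± 0.22. The signals of Cacng7 overlapped, from 32.9 to 62.7 in PNFLX arrays and from 44.9 to 76.9 in CONTROL arrays.

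**Figure D5:**
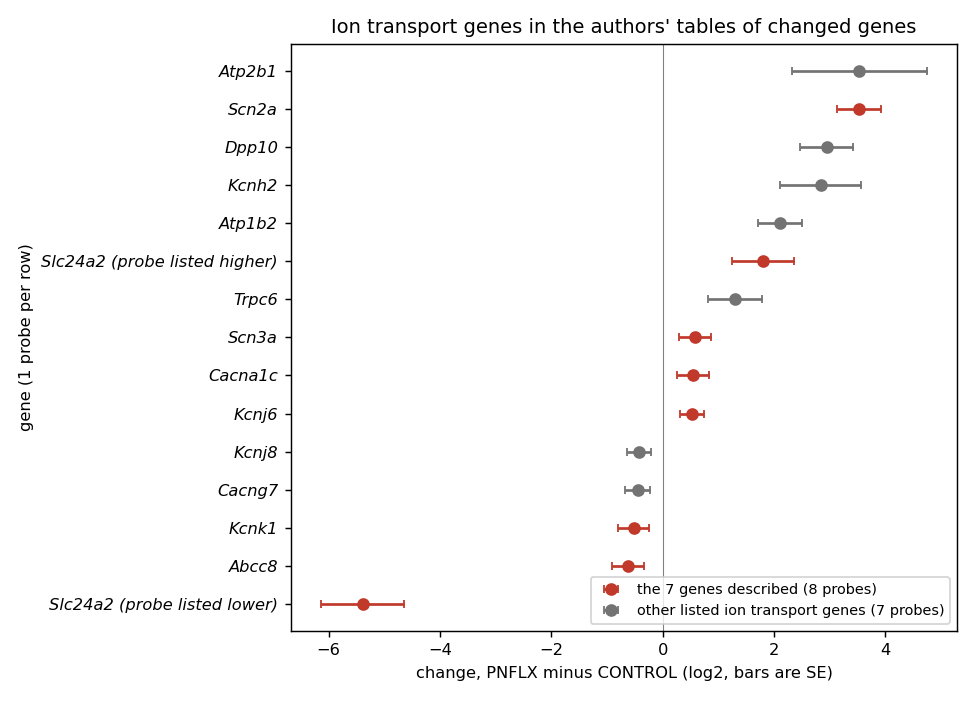
Change between the groups, PNFLX minus CONTROL (log2, horizontal axis), with its SE for the 8 probes described (red) and 7 other listed ion transport genes (grey), 1 probe per row, ordered by change. None of these 15 probes lies between -0.43 and 0.53, and the Slc24a2 probe listed lower has the lowest value, -5.39. All were listed with a PNFLX mean at least 0.4 (log2) from the CONTROL median, so a gap around 0 follows from the choice.

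Of 37 markers of neurons, glia, vessels and neighbouring striatum, 5 had a row in the tables, so the tissue label and the makeup of cells could not be checked from them. None of the 12 markers of neurons was named. The 5 were Vcan (-3.24 ± 0.54, log2, SE), Rgs5 (-3.06 ± 0.77), Anpep (-0.66 ± 0.30), Cldn5 (-0.57 ± 0.29) and Adcy5 (1.02 ± 0.28), and their part in the results was not tested. Rgs5, Cldn5 and Anpep mark vessels, as Kcnj8 does, and were the 3 of 6 vessel markers with a row. The other vessel markers could not be read, and a part of vessels in these values was not tested.

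For each probe the listed genes with the closest pattern over the 8 arrays were found by Pearson's r, as a description, since all listed probes were chosen on the same contrast and share the arrays. Scn2a was closest to Necab3 (r = 0.98) and Arl4a (0.97), and Scn3a to Htatip2 and Ndfip2 (both 0.97). Cacna1c was closest to Plekha4 (0.99) and Impdh1 (0.97). Kcnj6 was closest to Srsf11 and Bri3 (both 0.98), whose changes of 4.52 and 6.32 (log2) are many times larger than its own. Kcnk1 was closest to Sugp1 (0.97) and Plag1 (0.96), and Abcc8 to Pmel (0.96) and Ogfod3 (0.94). The Slc24a2 probe listed lower was closest to Gnl2 (0.97) and Vcan (0.96), and the other to Mrps7 and Acp5 (both 0.97).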

How the data were processed

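Total RNA of whole medial prefrontal cortex was labelled with Cy3 and hybridised in one colour, per the labels' protocols. The deposited value table holds log2 values centred, probe by probe, on the CONTROL median, which was 0 in every row to within 4.8e-07. Besides these log2 values, the authors' lists give background-subtracted signal intensity and an unadjusted p-value, per the file headers. For the 450 listed probes the log2 value differed from log2 intensity by an array constant plus a probe constant. The sources used here do not name the kind of scaling, the software or detection flags, so dim probes were not removed and probe levels were not compared with one another.

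Groups came from the sample titles. The difference PNFLX minus CONTROL was fitted by limma 3.58.1 (R 4.3.3, two-sided, moderated variances, no covariates). P-values were adjusted by Benjamini-Hochberg across all 15207 probes. The script was run on simulated data with independent noise, while PNFLX 2 and CONTROL 1 shared deviations here (r = 0.85). That run checked the code and not the counts for these arrays. SEs of changes are limma's moderated ones. No 2 arrays were identical. Symbols follow RefSeq (GRCr8) by gene ID, and 433 of 450 listed probes had one. Promoters are RefSeq's.

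Named are all 7 genes with each listed probe, every listed gene of 11 lists (some results are not reported here), the 5 listed cell markers and the 2 closest patterns per probe. The genes, lists and tests were chosen with earlier results of these data known. Alternatives were 3 scalings, a variance filter, other variance models, array weights, the replicate number as a block and leaving out arrays. Unscaled signals were added after seeing the data. Titles number the arrays from 1 to 4, and the block used these numbers. Source names and the authors' lists number them 1, 2, 4 and 5 in CONTROL and 1, 2, 3 and 5 in PNFLX, so the third arrays share a number only in the titles. Whether arrays with equal title numbers were paired could not be settled. Correlations of deviations from the group means for equal numbers were -0.21, -0.67, 0.44 and 0.35. For unequal numbers these correlations ran from -0.68 (PNFLX 4 with CONTROL 1) to 0.85 (PNFLX 2 with CONTROL 1).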

Additional observations from a re-analysis of the deposited data

Results flagged for a closer look

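Among 34 groups of 4 arrays examined (the 8 probes, the 7 other ion transport genes, array medians and array SDs), Dixon's test singled out 1 array, where about 1.7 would occur by chance. It was the SD over all probes of CONTROL 1, at 2.01 (log2), against 0.54 to 0.70 for the other CONTROL arrays. No group of the 8 member probes was singled out, although CONTROL 1 was the lowest CONTROL array for Scn2a, Scn3a and Kcnj6 and the highest for Kcnk1.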

How the results depend on the processing

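The 8 changes kept their sign in each of the 17 other fits that included them and with unscaled signals. For several of these the sign could hardly differ. Fits without moderation, with a variance trend or with the replicate block have the same estimates as the main fit. Equal medians, equal 75th percentiles and unscaled signals each move all probes by a constant. The members were also chosen on this contrast, so the kept signs are no support. Over the 17 other fits the 8 changes were 0.668 to 1.5 times the values given above (log2). The SE of every member probe was larger with each other scaling. With equal 75th percentiles the SE was larger than the size of the change for Scn3a (0.63 ± 0.85), Cacna1c (0.59 ± 0.81) and Kcnj6 (0.57 ± 0.74). The same held for Kcnk1 (-0.48 ± 0.68) and Abcc8 (-0.57 ± 0.81), but not for Scn2a or the Slc24a2 probes. Scn2a was at 2.80 with quantile normalization. Kcnj6, with its very small spread, was at 0.74 with quantile normalization, 0.61 with equal medians, 0.57 with equal 75th percentiles, 0.48 with array weights and 0.73 unscaled. Leaving out 1 array at a time gave 3.21 to 3.74 for Scn2a, 0.45 to 0.72 for Scn3a, 0.42 to 0.70 for Cacna1c, 0.51 to 0.54 for Kcnj6, -0.66 to -0.43 for Kcnk1, -0.74 to -0.43 for Abcc8, and -5.94 to -4.99 and 1.40 to 2.19 for the Slc24a2 probes.

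limma's count of member probes past the threshold, 1 of 8, was 0 with equal medians, a variance trend, quantile normalization, equal 75th percentiles, the replicate block (each with 3 member probes at an unadjusted p under 0.05), and after a filter that kept 5 of the 8 probes. It was 2 with array weights (Scn2a and the Slc24a2 probe listed lower). Without moderation it was again 1, but the probe was Kcnj6. Leaving out 1 array at a time gave 0 to 1, with Scn2a past the threshold only without CONTROL 1, and it also passed without CONTROL 1 and PNFLX 2. The adjusted p of Scn2a over the alternatives ran from 0.0015 to 1.00, against 0.0265 from all arrays. Over all probes the count, 18, 9 higher and 9 lower, was 10 with quantile normalization (2 higher, 8 lower), 4 with equal 75th percentiles (3 higher, 1 lower), 150 with array weights, 40 without CONTROL 1 and PNFLX 2, and 2 to 26 without single arrays. It was 0 with a variance trend (323 at an unadjusted p under 0.05) and 0 with the replicate block (346). The causes were not tested. Without detection flags, how far the dim PNFLX signals of Slc24a2 lie above background is not known.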

Other observations

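Other rows of the authors' tables concern ion transport outside the lists and were chosen after their values were seen. A further probe, named L04739 and described there as a plasma membrane calcium pump, was at 0.64 ± 0.28 (log2, SE). Its median signals were 234 in PNFLX arrays and 133 in CONTROL arrays. The sign was that of Atp2b1, and whether both probes read the same gene is not known. Kctd8, an auxiliary subunit of GABA-B receptors, which act on GIRK channels such as that of Kcnj6, was at -0.76 ± 0.26, with dim medians of 8.85 in PNFLX arrays and 11.7 in CONTROL arrays. The connexin gene Gja5 was at -3.00 ± 1.04, with medians of 4.46 in PNFLX arrays and 64.0 in CONTROL arrays and overlapping groups. Alg10, a glycosyltransferase gene that the tables call potassium channel regulator 1, was at 0.53 ± 0.28 with overlapping groups.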
